A study of Mus musculus with 12 samples.

Results

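The interferon-stimulated genes described here are a list of 41 genes, chosen by name with earlier results of these data known, among them the IFIT, OAS and Mx families, the ISG15 system, the interferon-inducible GTPases and the factors that transmit the interferon signal. They are 41 of the 54356 genes of the GENCODE M21 annotation (GRCm38) to which the reads were summed. All 41 symbols were found in the annotation, and they were sorted into 8 groups by role. RNA was sequenced from C57BL/6 mouse astrocytes of cortex or midbrain. The mock cultures of each region were kept in growth medium, and the other cultures carried shPTB, a short hairpin RNA against the RNA-binding protein PTB (encoded by Ptbp1), in neuronal differentiation medium for 2 or 4 weeks. Each of the 6 groups had 2 libraries, the labels give no age for the mice, and the effects of the hairpin and of the medium cannot be told apart. The labels do not say that the libraries of a group came from separate cultures or animals, and the tests therefore reflect the spread between libraries, which may be technical.

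Interferons are secreted antiviral proteins. Type I interferon binds a receptor made of Ifnar1 and Ifnar2, whose kinases Jak1 and Tyk2 activate Stat2. It joins Irf9 in a complex that binds the interferon-stimulated response element (ISRE) in front of target genes, while interferon gamma acts at the gamma-activated site (GAS). The targets include proteins that bind viral RNA, degrade it or block virus entry and budding, and also the signalling factors themselves. Astrocytes and microglia, the immune cells of the brain, can both respond to interferon.

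The RefSeq promoter windows of 300 bases (250 before to 50 from the gene's start, GRCm38.p6) covered 31 of the 41 members. The ISRE core, taken as GAAA, any 2 bases and again GAAA on either strand, with matches allowed to overlap one another, occurred in windows of 19 of the 31 (61.3%), against 3.44% of all 32851 windows and 3.99% of all 27025 genes with a window. The GAS core TTCNNNGAA occurred in 10 of the 31 (32.3%), against 8.30% of all windows and 9.55% of genes, and in Bst2 and Ifitm3 it overlapped an ISRE match. Windows are shown for Ifit1, Ifit3 and Ifit3b, which rose in every comparison with mock, for the near-identical Tgtp1 and Tgtp2, for Bst2, which fell in cortex, and for Isg15, which had almost no reads. Each is written 5′ to 3′ on the gene's strand with the ISRE cores in capitals.
Ifit1, chr19:34640639-34640938, plus strand: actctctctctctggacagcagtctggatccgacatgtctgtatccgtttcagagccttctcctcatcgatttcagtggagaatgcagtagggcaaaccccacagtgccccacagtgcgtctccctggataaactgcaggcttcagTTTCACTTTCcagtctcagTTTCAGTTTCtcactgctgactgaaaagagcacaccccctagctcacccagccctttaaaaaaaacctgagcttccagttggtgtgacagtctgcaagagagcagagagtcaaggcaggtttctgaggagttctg
Ifit3, chr19:34583279-34583578, plus strand: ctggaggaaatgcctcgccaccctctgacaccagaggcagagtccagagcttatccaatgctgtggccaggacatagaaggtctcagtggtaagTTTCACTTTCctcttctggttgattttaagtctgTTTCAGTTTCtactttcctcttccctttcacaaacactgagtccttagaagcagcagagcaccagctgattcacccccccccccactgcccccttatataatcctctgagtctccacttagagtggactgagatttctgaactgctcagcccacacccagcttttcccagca
Ifit3b, chr19:34607707-34608006, plus strand: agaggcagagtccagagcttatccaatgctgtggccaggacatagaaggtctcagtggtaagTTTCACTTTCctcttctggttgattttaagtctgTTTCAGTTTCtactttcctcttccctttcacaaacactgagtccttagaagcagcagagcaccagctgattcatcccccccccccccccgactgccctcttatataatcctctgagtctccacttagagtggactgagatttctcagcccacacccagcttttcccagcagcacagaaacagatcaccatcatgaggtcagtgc
Tgtp1, chr11:48992197-48992496, minus strand: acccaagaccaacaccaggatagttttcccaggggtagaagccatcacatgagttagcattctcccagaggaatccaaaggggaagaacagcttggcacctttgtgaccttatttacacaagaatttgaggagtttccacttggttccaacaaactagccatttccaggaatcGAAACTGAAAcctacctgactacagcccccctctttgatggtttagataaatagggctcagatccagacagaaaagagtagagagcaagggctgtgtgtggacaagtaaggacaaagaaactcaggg
Tgtp2, chr11:49064163-49064462, minus strand: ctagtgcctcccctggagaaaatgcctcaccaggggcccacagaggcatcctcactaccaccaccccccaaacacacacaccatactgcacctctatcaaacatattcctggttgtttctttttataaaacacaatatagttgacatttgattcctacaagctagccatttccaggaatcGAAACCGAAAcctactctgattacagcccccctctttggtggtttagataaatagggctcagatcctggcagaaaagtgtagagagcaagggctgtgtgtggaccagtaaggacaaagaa
Bst2, chr8:71537423-71537722, minus strand: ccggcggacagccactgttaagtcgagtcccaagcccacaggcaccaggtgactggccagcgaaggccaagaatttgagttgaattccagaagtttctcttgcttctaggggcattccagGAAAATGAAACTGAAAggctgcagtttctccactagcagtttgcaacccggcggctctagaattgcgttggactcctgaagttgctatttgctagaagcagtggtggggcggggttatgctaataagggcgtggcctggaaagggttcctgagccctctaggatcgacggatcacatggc
Isg15, chr4:156200769-156201068, minus strand: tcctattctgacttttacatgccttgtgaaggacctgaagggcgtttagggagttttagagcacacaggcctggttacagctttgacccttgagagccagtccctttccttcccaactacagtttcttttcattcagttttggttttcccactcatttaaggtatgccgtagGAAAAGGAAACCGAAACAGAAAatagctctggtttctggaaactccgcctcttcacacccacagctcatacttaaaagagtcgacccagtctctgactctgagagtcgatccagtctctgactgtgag
Ifit1, Ifit3 and Ifit3b each held 2 separate cores, which began 104 and 85 bases before the start in Ifit1, 156 and 122 in Ifit3, and 188 and 154 in Ifit3b. Bst2 held 2 overlapping cores and Isg15 held 3. Tgtp1 and Tgtp2 held 1 core each, 77 and 70 bases before the start. Of the 16 members that rose at 2 weeks in both regions, 12 had a window, and 9 of these held the core. Of the other 19 tested members, 15 had a window and 7 held the core. Among the 16 members that rose at 2 weeks in both regions, the windows of Lgals3bp, Oasl1 and Oasl2 held no match to these letters. A match describes the sequence and is not evidence of binding.

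Libraries held 6022098 to 11385761 reads, and 14607 genes, 35 of the members among them, passed the filter on low counts. The 6 members that did not were Gbp3, Ifi44, Isg15, Mx1, Oas2 and Tgtp1. Levels are CPM, reads per 1000000 of the library size after TMM scaling, changes are log2 fold changes ± standard error from the quasi-likelihood test of edgeR, and a gene is called at a Benjamini-Hochberg adjusted p under 0.05 over all 14607 genes. Ptbp1, the target of the hairpin, was at 173 and 251 CPM in cortex mock against 73.0 and 73.5 at 2 weeks and 89.2 and 90.5 at 4 weeks. In midbrain it was at 208 and 250 CPM in mock, 105 and 90.8 at 2 weeks and 169 and 155 at 4 weeks, where the difference from mock was not called (-0.50 ± 0.20, adjusted p = 0.0744). All 11 astrocyte markers had reads in every group. The 2 libraries of a group differed by more than 2-fold in 18.4% of genes in cortex mock, 15.8% in midbrain mock and 6.44 to 10.5% in the other groups, and the mock libraries of number 1 and number 2 differed in the same way in both regions (the correlation across genes of the differences was 0.716). Mitochondrially encoded genes took 16.9 to 22.7% of reads in mock and 36.4 to 48.3% in shPTB libraries.

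At 2 weeks 18 of the 35 tested members were higher than in mock in each region. In cortex 18 were higher, where 17.5% of all genes tested were, and 2 were lower, where 17.6% were. The median change of the 35 tested members was 0.90 on the log2 scale, against -0.11 for all genes. In midbrain 18 members were higher (15.9% of all genes) and 1 was lower (14.7%), with a median of 1.02 against -0.07. In both regions 16 members rose, and they are Ifit1, Ifit3, Ifit3b, Usp18, Oasl1, Oasl2, Rsad2, Zbp1, Ddx58, Ifih1, Tgtp2, Igtp, Iigp1, Gbp2, Rtp4 and Lgals3bp. Bulk RNA does not separate more cells of a responding type from more RNA per cell: fewer cells of a type and less RNA per cell cannot be told apart.

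At 4 weeks the 2 regions differed. In midbrain 20 members were higher than in mock (18.7% of all genes) and 2 were lower (20.4%), with a median of 1.24 against -0.15. In cortex only 5 members were higher (18.5% of all genes), which were Ifit1, Ifit3, Ifit3b, Rtp4 and Lgals3bp, while 8 were lower (20.9%), with a median of -0.56 against -0.12. The 8 were Bst2, Cmpk2, Trim25, Eif2ak2, Irf9, Stat2, Ifi27 and Tgtp2. The call of Tgtp2 reverses when its reads are summed with those of the near-identical Tgtp1 (1.45, adjusted p = 0.0175). Oas1a is among the 20 in midbrain, and its sum with the near-identical Oas1g was not called there (0.80, adjusted p = 0.0591). Of the 16 members that had risen at 2 weeks in both regions, 15 were also higher at 4 weeks in midbrain, and 9 of these 15 were not called at 4 weeks in cortex. The filter lets a gene pass through the groups in which it is high, so these counts and medians describe the 35 tested members.

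**Figure D1:**
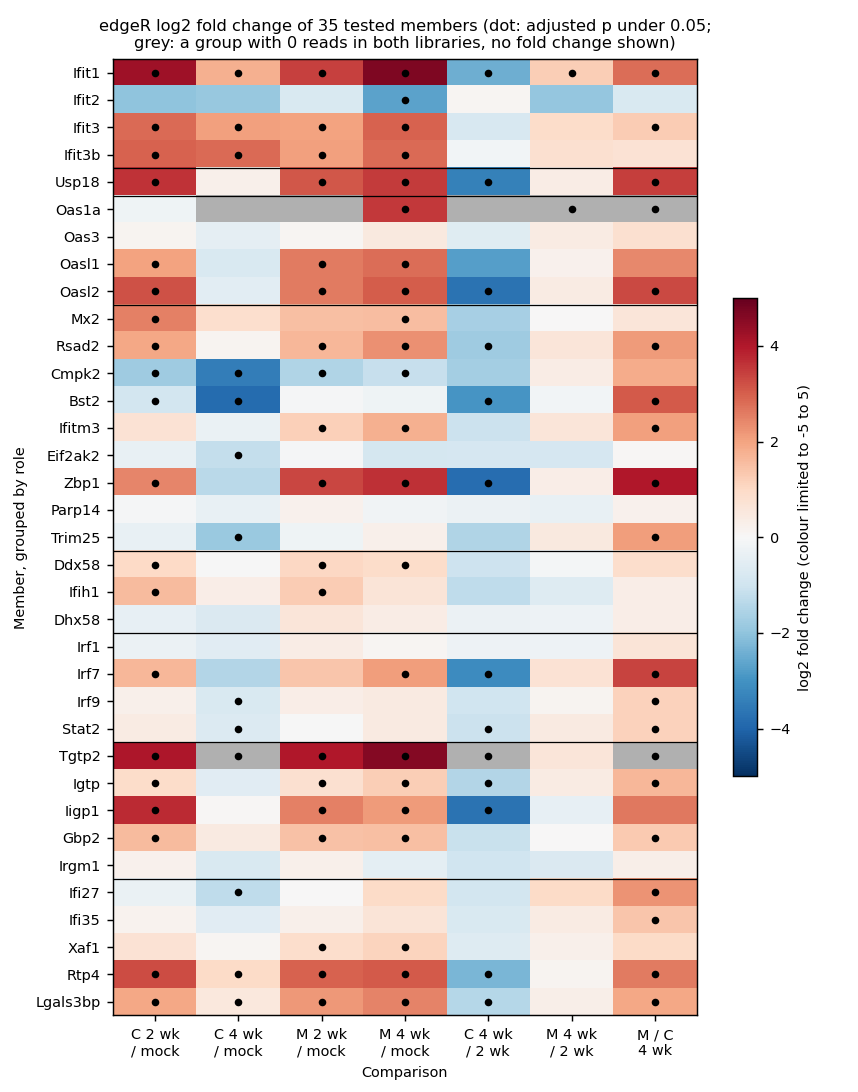
Heat map of log2 fold changes from edgeR for the 35 tested members (rows, grouped by role, separated by lines) in 7 comparisons (columns; C, cortex; M, midbrain). Red is higher and blue lower in the group named before the stroke, dots mark adjusted p under 0.05, and grey cells have a group with 0 reads. Most rows are red at 2 weeks in both regions and at 4 weeks in midbrain, with 18, 18 and 20 members higher, and the column of cortex 4 against 2 weeks holds 13 dots, all on members that were lower.

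Scaling to total reads in place of TMM lowered all shPTB libraries together, with a median over all genes of -0.85 and -1.21 in cortex and -0.74 and -1.01 in midbrain at 2 and 4 weeks. Under this scaling 13 members were higher and 5 lower in cortex at 2 weeks, and 14 higher and 3 lower in midbrain, with 7317 and 6833 of the 14607 genes called in either direction. At 4 weeks 3 were higher and 24 lower in cortex, and 15 higher and 6 lower in midbrain, with 9201 and 8328 genes called. With a single mock library for each region, the counts in cortex at 4 weeks were 6 higher and 15 lower without the mock libraries numbered 1, and 8 higher and 12 lower without those numbered 2, of 36 members tested, while 7051 and 8590 of all genes were called in place of 5753. With only the 2 groups compared in the fit they were 3 higher and 5 lower, with 4261 of all genes called.

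The calls of some members were lost when a single library was left out. Such a fit leaves 1 library in a group. The number of all genes called in it is not given here or in the later paragraphs. These losses are therefore not set against those of all genes and cannot be read as particular to the members. In cortex at 2 weeks, Oasl1 was not called without mock library 1 or 2-week library 1 (adjusted p = 0.101 and 0.119), Cmpk2 without 2-week library 2 (0.0623) and Bst2 without 2-week library 1 (0.0792). Irf7 was lost without mock library 1 or either 2-week library (adjusted p = 0.105, 0.134 and 0.0509), Ifih1 without either 2-week library (0.0571 and 0.0724), and Igtp without mock library 1 or 2-week library 2 (0.0527 and 0.0521). Ddx58 was lost without cortex mock library 2 or any shPTB library other than those of midbrain at 2 weeks (adjusted p from 0.0502 to 0.225). In midbrain at 2 weeks the count fell from 19 to 12 without 2-week library 1. There Oasl1 was lost without that library (adjusted p = 0.0905), Cmpk2 without either 2-week library (0.0627 and 0.0887), Igtp without mock library 1 or 2-week library 1 (0.092 and 0.112), and Ifitm3 without mock library 1 or either 2-week library (0.0908, 0.0805 and 0.0687). Ddx58, Ifih1 and Xaf1 were each lost without any of 5 to 9 single libraries, which for each included midbrain mock library 2 and 2-week library 1 (adjusted p from 0.0533 to 0.312).

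In cortex at 4 weeks the count of 13 fell to 6 without 4-week library 1 and to 8 without 4-week library 2. Tgtp2 was lost without either (adjusted p = 0.0619 and 0.0548), Stat2 without 4-week library 1 (0.14), Trim25 without 4-week library 2 (0.0696), and Rtp4 without mock library 2 or 4-week library 1 (0.0626 and 0.124). Ifi27 was lost without mock library 1 or either 4-week library (adjusted p = 0.198, 0.0617 and 0.144). Eif2ak2, Irf9 and Lgals3bp were each lost without any of 7 to 9 single libraries, both cortex 4-week libraries among them (adjusted p from 0.0507 to 0.226). In midbrain at 4 weeks Oas1a was lost without 4-week library 1 (adjusted p = 0.0682), and Iigp1 and Xaf1 without mock library 1 or 4-week library 1 (0.0588 to 0.184). Ifit2 was lost without mock library 1 or either 4-week library (adjusted p from 0.0605 to 0.119), Cmpk2 without mock library 1 or 4-week library 2 (0.0718 and 0.233), and Ddx58 and Mx2 without any shPTB library and without mock library 2 (0.0512 to 0.2), Mx2 also without mock library 1. The other members called in these 4 comparisons remained called whichever library was left out.

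Among the IFIT proteins, which bind viral RNA and block its translation, Ifit1 (chr19:34640871-34650009) was at 3.25 and 3.82 CPM in cortex mock, 60.5 and 71.4 at 2 weeks and 13.0 and 11.1 at 4 weeks. In midbrain it was at 3.69 and 3.02 CPM in mock, 36.5 and 35.1 at 2 weeks and 83.2 and 86.4 at 4 weeks. In both regions the shPTB libraries lay above every mock library, and the highest level came at 2 weeks in cortex but at 4 weeks in midbrain. Against mock Ifit1 rose by 4.22 ± 0.21 and 1.77 ± 0.21 in cortex and by 3.41 ± 0.20 and 4.65 ± 0.21 in midbrain at 2 and 4 weeks (adjusted p = 3.04e-07, 6.85e-05, 9.53e-07 and 1.57e-07).

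Ifit3, in the same cluster as Ifit1 on chromosome 19, followed with 8.08 and 12.9 CPM in cortex mock, 76.4 and 73.7 at 2 weeks and 39.4 and 46.3 at 4 weeks. Its midbrain levels were 11.8 and 15.5 CPM in mock, 54.2 and 56.6 at 2 weeks and 104 and 104 at 4 weeks. The shPTB libraries again did not overlap with mock in either region. Ifit3 rose by 2.85 ± 0.24, 2.04 ± 0.24, 2.02 ± 0.23 and 2.93 ± 0.24 in the same order (adjusted p = 9.87e-06, 6.8e-05, 8.72e-05 and 5.84e-06), and its neighbour Ifit3b, with 0.523 to 1.19 CPM in mock and 3.17 to 8.03 in shPTB libraries, rose by 2.05 to 2.95. Of the last 500 bases of Ifit3, 24.0% of 31-base words also occur in Ifit3b, so reads could be divided between them, and the sum of both rose in all 4 comparisons too. Ifit2, a further IFIT protein, went the other way, with 2.31 to 5.70 CPM in mock and 0.183 to 2.98 in shPTB libraries, and it fell only at 4 weeks in midbrain (-2.69 ± 0.75, adjusted p = 0.0155).

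Usp18 removes the ubiquitin-like protein ISG15 from its targets and restrains the type I receptor. It was at 0.930 and 1.83 CPM in cortex mock, 15.2 and 18.2 at 2 weeks and 1.65 and 1.54 at 4 weeks, and in midbrain at 0.922 and 2.18 CPM in mock, 12.3 and 14.2 at 2 weeks and 16.2 and 18.6 at 4 weeks. The cortex 4-week libraries lay between the 2 mock libraries, and the other shPTB libraries lay far above mock. Usp18 rose by 3.62 ± 0.39 in cortex at 2 weeks and by 3.11 ± 0.37 and 3.50 ± 0.38 in midbrain at 2 and 4 weeks (adjusted p = 5.26e-05, 0.000132 and 4.78e-05), and its difference in cortex at 4 weeks was 0.24 ± 0.50 (adjusted p = 0.729). Isg15 itself had at most 3 reads in any library and 8 in all, so no change was detectable at this depth.

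The OAS family comprises enzymes that are switched on by double-stranded RNA, and OAS-like relatives. The OAS-like gene Oasl2 was at 3.78 and 3.50 CPM in cortex mock, 29.4 and 36.8 at 2 weeks and 2.75 and 2.31 at 4 weeks, and in midbrain at 3.36 and 2.82 CPM in mock, 19.8 and 18.2 at 2 weeks and 23.3 and 26.8 at 4 weeks. At 4 weeks the cortex libraries were below both cortex mock libraries while those of midbrain were the highest of that region. Oasl2 rose by 3.18 ± 0.21 in cortex at 2 weeks, and its rises in midbrain were 2.61 ± 0.21 at 2 weeks and 3.01 ± 0.21 at 4 weeks (adjusted p = 2.38e-06, 8.29e-06 and 2.55e-06). Oasl1 rose in the same 3 comparisons, by 2.01 to 2.79, from 0.325 to 1.11 CPM in mock. Oas3 was called in none (changes from -0.45 to 0.48).

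Oas1a was unevenly spread, with 0.271 to 1.34 CPM in mock, 1.87 and 0 in cortex at 2 weeks, 0 in both midbrain 2-week and both cortex 4-week libraries, and 7.05 and 5.89 in midbrain at 4 weeks. Against midbrain mock it rose by 3.55 ± 0.89 (adjusted p = 0.0123). Its 3′ end shares 70% of its 31-base words with the near-identical Oas1g, and the sum of both genes had another course. That sum was at 9.35 and 14.4 CPM in cortex mock, 20.97 and 22.6 at 2 weeks and 0.733 and 1.92 at 4 weeks, and in midbrain at 7.49 and 12.005 in mock, 11.5 and 12.4 at 2 weeks and 15.5 and 18.3 at 4 weeks. Summed, the pair rose in cortex at 2 weeks (0.88, adjusted p = 0.0446), fell there at 4 weeks (-3.16, adjusted p = 0.000179) and was not called in midbrain at 4 weeks (0.80, adjusted p = 0.0591).

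**Figure D2:**
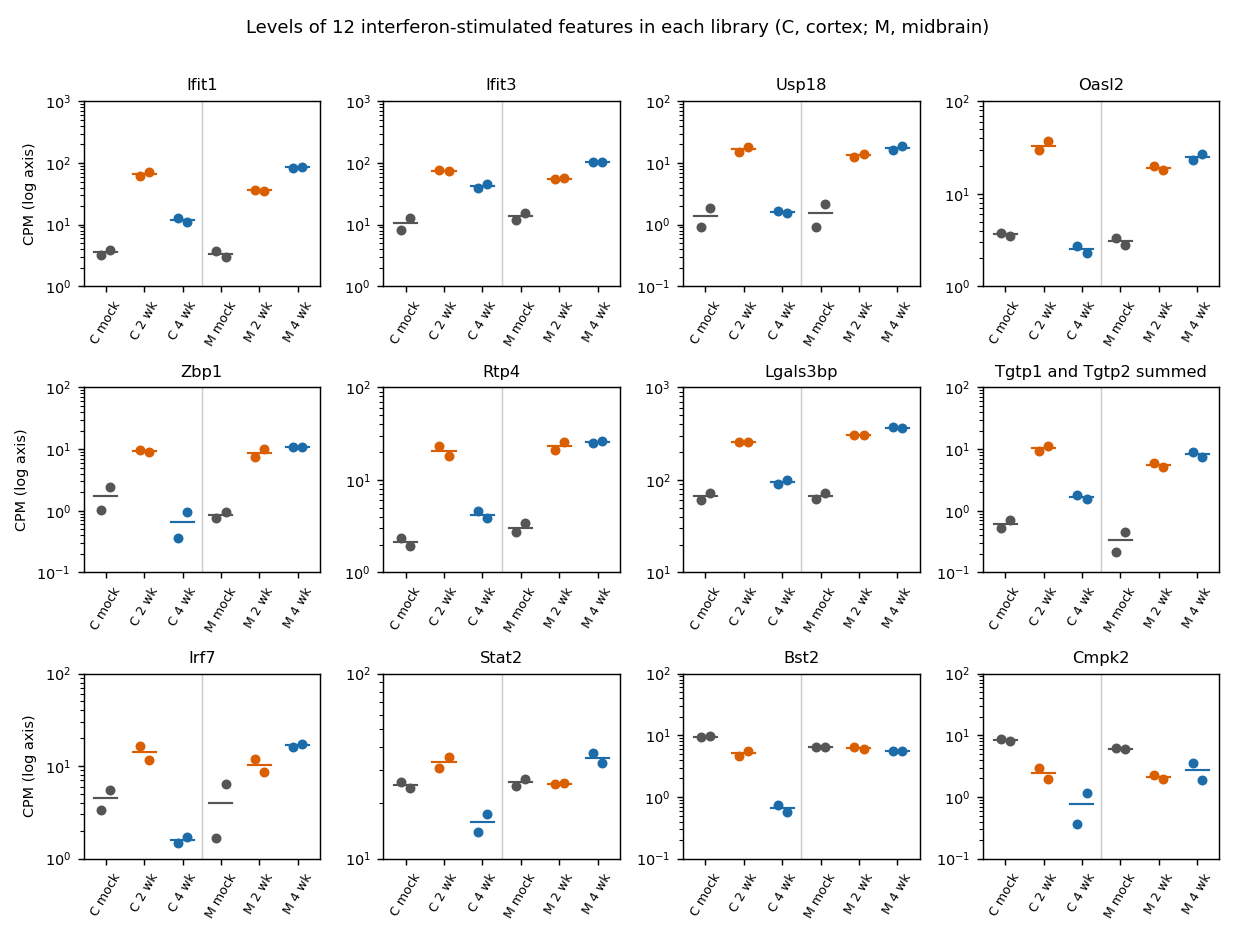
CPM on a log axis of 11 members and of the sum of Tgtp1 and Tgtp2 in the 12 libraries, by group (C, cortex; M, midbrain; wk, weeks of shPTB). Points are libraries and short lines are means of 2. For Ifit1 the cortex libraries rise from 3.25 and 3.82 CPM in mock to 60.5 and 71.4 at 2 weeks and return to 13.0 and 11.1 at 4 weeks, while those of midbrain reach 83.2 and 86.4 at 4 weeks.

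Other antiviral effectors fell into members that rose and members that fell. Zbp1, a sensor of left-handed nucleic acid, was at 1.05 and 2.47 CPM in cortex mock, 9.73 and 9.09 at 2 weeks and 0.366 and 0.961 at 4 weeks, and in midbrain at 0.759 and 0.963 in mock, 7.36 and 10.2 at 2 weeks and 10.8 and 10.98 at 4 weeks. The cortex 4-week libraries were the only shPTB libraries of Zbp1 below their mock. It rose by 2.45 ± 0.39, 3.33 ± 0.41 and 3.65 ± 0.41 in cortex at 2 weeks and midbrain at 2 and 4 weeks (adjusted p = 0.000746, 0.000146 and 6.28e-05). Rsad2 (viperin, which makes a chain-terminating nucleotide) rose in the same 3 comparisons, by 1.94, 1.67 and 2.29, and returned to 1.47 and 2.11 CPM in cortex at 4 weeks, beside 1.34 and 1.91 in mock. Ifitm3, which hinders fusion of virus with the cell, passed the test in midbrain (1.197 ± 0.32 and 1.79 ± 0.32), from 1807 and 2646 CPM in mock to 5165 and 5039 and then 7738 and 7663. With a transcript length offset the change in midbrain at 2 weeks was -0.41 (adjusted p = 0.171). In cortex it was at 3733 and 3973 CPM at 2 weeks, above both mock libraries, with a change of 0.72 ± 0.32 (adjusted p = 0.0989). Mx2, which GENCODE annotates as a polymorphic pseudogene, was at 0.318 to 0.581 CPM in mock, and it rose in cortex at 2 weeks (2.51 ± 0.53) and in midbrain at 4 weeks (1.53 ± 0.55).

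Cmpk2, a mitochondrial nucleotide kinase whose gene lies beside Rsad2 on chromosome 12, fell in all 4 comparisons. It was at 8.83 and 7.96 CPM in cortex mock, 2.995 and 1.95 at 2 weeks and 0.366 and 1.15 at 4 weeks, and in midbrain at 6.18 and 5.91 in mock, 2.26 and 1.99 at 2 weeks and 3.59 and 1.87 at 4 weeks. Every shPTB library was below every mock library. The changes were -1.77 ± 0.39 and -3.46 ± 0.47 in cortex and -1.50 ± 0.37 and -1.14 ± 0.37 in midbrain (adjusted p = 0.0048, 0.000207, 0.0109 and 0.0307).

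Bst2 (tetherin, which holds budding virus at the cell surface) fell in cortex and was not called against mock in midbrain. It was at 9.30 and 9.79 CPM in cortex mock, 4.68 and 5.52 at 2 weeks and 0.733 and 0.576 at 4 weeks, against 5.62 to 6.51 CPM in all 6 midbrain libraries. The groups of neither region overlapped, and the order from mock to 4 weeks was downward in both, with a far smaller spread in midbrain. The changes in cortex were -0.90 ± 0.22 and -3.84 ± 0.31 (adjusted p = 0.00938 and 4.87e-06), and in midbrain -0.07 ± 0.21 and -0.20 ± 0.22 (adjusted p = 0.834 and 0.479). Trim25, a ubiquitin ligase that aids RNA sensing, and Eif2ak2 (PKR, a kinase that halts translation) fell in cortex at 4 weeks by 1.87 ± 0.46 and 1.18 ± 0.41 on the log2 scale. Parp14 was called in no comparison.

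Of the 3 cytosolic sensors of viral RNA, Ddx58 (RIG-I) was at 11.3 and 7.56 CPM in cortex mock, 22.3 and 15.7 at 2 weeks and 8.24 and 10.4 at 4 weeks. In midbrain it was at 11.8 and 6.16 CPM in mock, 15.7 and 20.9 at 2 weeks and 16.6 and 17.3 at 4 weeks. Its 2-week libraries were above mock in both regions and its cortex 4-week libraries lay within the range of mock. Ddx58 rose by 1.0035 ± 0.33 and 1.02 ± 0.32 at 2 weeks in cortex and midbrain and by 0.91 ± 0.32 in midbrain at 4 weeks (adjusted p = 0.0348, 0.0338 and 0.0459). Ifih1 (MDA5) rose at 2 weeks in both, by 1.59 ± 0.42 and 1.27 ± 0.41, from 1.41 to 3.58 CPM in mock to 6.00 to 7.63. Dhx58 (LGP2), which tunes the other two, was at 1.36 to 4.61 CPM in every library and was not called against mock (changes from -0.71 to 0.60).

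Among the transcription factors, Irf7, the factor that amplifies interferon production, was at 3.37 and 5.57 CPM in cortex mock, 16.5 and 11.7 at 2 weeks and 1.47 and 1.73 at 4 weeks, and in midbrain at 1.68 and 6.36 in mock, 11.9 and 8.72 at 2 weeks and 16.2 and 17.5 at 4 weeks. Its cortex 4-week libraries were below mock and its other shPTB libraries above. Irf7 rose by 1.66 ± 0.49 in cortex at 2 weeks (adjusted p = 0.021) and by 2.08 ± 0.48 in midbrain at 4 weeks (adjusted p = 0.00601), with 1.37 ± 0.48 in midbrain at 2 weeks (adjusted p = 0.0502). Stat2 was at 25.9 and 23.9 CPM in cortex mock, 31.1 and 35.5 at 2 weeks and 13.9 and 17.5 at 4 weeks, and between 24.7 and 37.3 in midbrain. Irf9 was at 44.0 and 69.3 CPM in cortex mock, 68.7 and 67.8 at 2 weeks and 31.9 and 35.7 at 4 weeks, and between 44.7 and 76.5 in midbrain. Neither of these partners in the ISRE-binding complex rose in a comparison with mock, and both fell in cortex at 4 weeks (-0.67 ± 0.18 and -0.74 ± 0.24, adjusted p = 0.0144 and 0.0297). The fall of Stat2 was not found with a transcript length offset (0.09, adjusted p = 0.875). Irf1, which responds mainly to interferon gamma, stayed between 7.11 and 15.3 CPM and was not called.

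The interferon-inducible GTPases, which act on the vacuoles of intracellular pathogens, included some of the steepest rises. Tgtp1 and Tgtp2 share all 31-base words of their last 500 bases, so their reads cannot be assigned to either, and Tgtp1 held reads (10 and 8) only in the cortex 4-week libraries, where Tgtp2 had 0. Their sum was at 0.523 and 0.716 CPM in cortex mock, 9.36 and 11.2 at 2 weeks and 1.83 and 1.54 at 4 weeks, and in midbrain at 0.217 and 0.449 in mock, 5.88 and 5.08 at 2 weeks and 9.12 and 7.36 at 4 weeks. All shPTB libraries of the sum were above mock. The sum rose by 4.05 and 1.45 in cortex and by 4.02 and 4.61 in midbrain (adjusted p = 1.2e-05, 0.0175, 2.17e-05 and 5.68e-06). Tgtp2 alone was called lower in cortex at 4 weeks, at least 2.15-fold if 3 reads are assumed in that group, a direction that the sum reverses.

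Iigp1 rose from 0.159 to 0.770 CPM in mock to 4.87 and 5.05 in cortex at 2 weeks (3.74 ± 0.61, adjusted p = 0.000868) and to 3.09 and 3.28 in midbrain at the same time (2.54 ± 0.57, adjusted p = 0.00658). At 4 weeks it was at 0.549 and 0.192 CPM in cortex and 3.32 and 1.47 in midbrain. Gbp2 was at 122 and 237 CPM in cortex mock, 530 and 532 at 2 weeks and 244 and 245 at 4 weeks, and in midbrain at 153 and 273 in mock and 578 to 611 in shPTB libraries. It rose in cortex at 2 weeks and in midbrain at both times, by 1.47 to 1.56. Igtp rose in the same 3 comparisons by 0.82 to 1.24. Irgm1 was called in none.

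The remaining interferon-induced genes held 2 members that rose in all 4 comparisons. Rtp4, a chaperone of cell surface receptors, was at 2.38 and 1.91 CPM in cortex mock, 23.2 and 18.2 at 2 weeks and 4.58 and 3.84 at 4 weeks, and in midbrain at 2.71 and 3.40 in mock, 21.2 and 25.9 at 2 weeks and 25.0 and 26.2 at 4 weeks. Lgals3bp, a secreted glycoprotein that binds galectins, was at 60.9 and 72.1 CPM in cortex mock, 258 and 257 at 2 weeks and 91.6 and 100.3 at 4 weeks, and in midbrain at 62.3 and 71.5 in mock, 304 and 305 at 2 weeks and 371 and 365 at 4 weeks. Both genes were above mock in every shPTB library, by less in cortex at 4 weeks than elsewhere. Rtp4 rose by 3.25 ± 0.24, 0.96 ± 0.27, 2.94 ± 0.23 and 3.07 ± 0.23, and Lgals3bp by 1.95 ± 0.17, 0.53 ± 0.17, 2.19 ± 0.17 and 2.46 ± 0.18, in cortex at 2 and 4 weeks and midbrain at 2 and 4 weeks (largest adjusted p = 0.0161 and 0.0287). Scaled to total reads, the values of cortex at 4 weeks were -0.14 for Rtp4 (adjusted p = 0.701) and -0.54 for Lgals3bp (adjusted p = 0.00502). Xaf1, which promotes apoptosis, rose in midbrain at both times (0.87 ± 0.29 and 1.11 ± 0.29), Ifi27 fell in cortex at 4 weeks (-1.26 ± 0.38, adjusted p = 0.0209), and Ifi35 was not called against mock.

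From 2 to 4 weeks 13 of the 35 tested members fell in cortex and 2 rose in midbrain. In cortex 13 were lower at 4 than at 2 weeks, where 2.22% of all genes were, and 0 were higher (0.548% of all genes; 0 also at an unadjusted p under 0.05, and 0 by DESeq2 and by limma-voom). Both cortex 4-week libraries lay below both 2-week libraries for 31 of the 35 tested members, as for 27.4% of all genes. Oasl2 fell by 3.70 ± 0.24, Zbp1 by 3.81 ± 0.51, Usp18 by 3.38 ± 0.43, Bst2 by 2.94 ± 0.33 and Ifit1 by 2.45 ± 0.19 on the log2 scale (adjusted p = 0.000139, 0.00326, 0.00237, 0.00109 and 0.000277). The sum of Tgtp1 and Tgtp2 fell by 2.6002 (adjusted p = 0.00317), and Irf7, Iigp1, Rtp4, Rsad2, Igtp, Lgals3bp and Stat2 also fell. The count of 13 was 8 without either cortex 2-week library, 5 without cortex 4-week library 1 and 7 without 4-week library 2, and it was 25, of which 24 were lower, without both mock libraries of either number, with 2704 and 2644 of all genes called in place of 405. Without 4-week library 1 Usp18, Zbp1 and Lgals3bp were not called (adjusted p = 0.0693, 0.0805 and 0.071), and without 4-week library 2 Usp18 was not (0.0564). Rsad2, Irf7, Stat2, Igtp and Iigp1 were lost without any of the 4 cortex shPTB libraries (adjusted p from 0.0633 to 0.24), and Iigp1 also without either midbrain 2-week library (0.0513 and 0.0506).

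In midbrain 2 members were higher at 4 than at 2 weeks (0.958% of all genes), Ifit1 by 1.24 ± 0.18 (adjusted p = 0.00746) and Oas1a, at least 38.5-fold with 3 reads assumed at 2 weeks. Summed with Oas1g the latter was not called (0.50, adjusted p = 0.441). Both calls were lost without any of the 4 midbrain shPTB libraries (adjusted p from 0.0845 to 0.208), which left 0 members called. The count was 12, of which 11 were higher, without both mock libraries of either number and also with only the 2 groups compared in the fit, and 15, of which 13 were higher, with limma-voom, while the number of all genes called went from 388 to between 3379 and 3903. The midbrain 4-week libraries lay above both 2-week libraries for 18 of the 35 members, as for 29.3% of all genes.

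**Figure D3:**
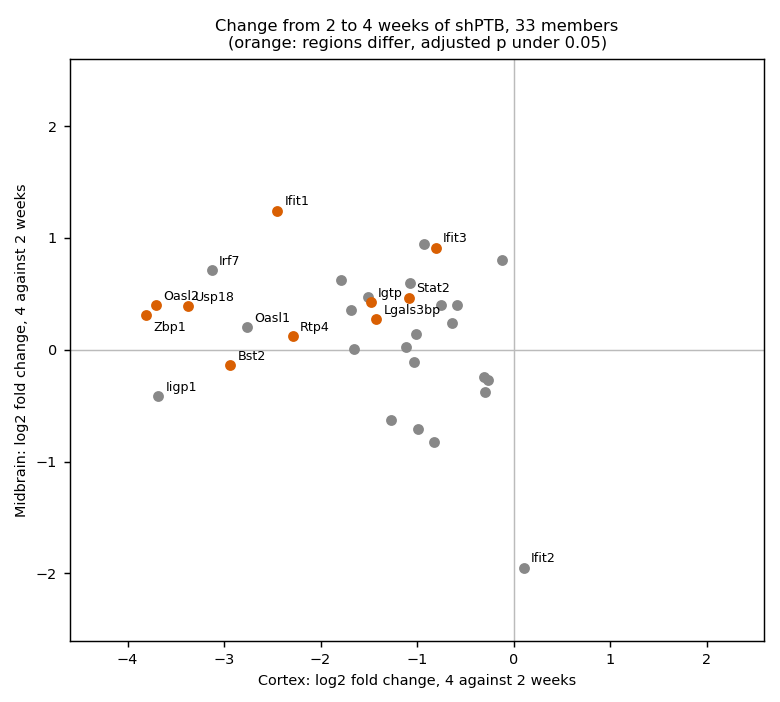
Log2 fold change from 2 to 4 weeks of shPTB in cortex (x axis) against midbrain (y axis) for 33 tested members, without Tgtp2 and Oas1a, which had groups with 0 reads. Orange points are members whose change differed between the regions at adjusted p under 0.05. Every point but Ifit2 lies left of 0 for cortex, most lie near or above 0 for midbrain, and Ifit1 is at -2.45 and 1.24.

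Set side by side, few members differed between the regions in mock and at 2 weeks, and most did at 4 weeks. Between midbrain and cortex mock 0 members were called, where 2.19% of all genes were (2 at an unadjusted p under 0.05, 0 by DESeq2 and by limma-voom). At 2 weeks 1 member was lower in midbrain (0.931% of all genes), Ifit1 by 0.88 ± 0.18 (adjusted p = 0.0255), a call lost without any shPTB library (0.0526 to 0.252), while 4 members were called higher and 6 lower without both mock libraries of either number, with 3053 and 3023 of all genes called in place of 430. At 4 weeks 20 members were higher in midbrain than in cortex (5.48% of all genes), with a median of 1.65 against -0.01 for all genes. Both midbrain libraries lay above both cortex libraries for 29 of the 35 members, as for 29.6% of all genes. Zbp1 was higher by 4.02 ± 0.51, Usp18 by 3.44 ± 0.43, Irf7 by 3.39 ± 0.60, Oasl2 by 3.30 ± 0.24 and Bst2 by 3.08 ± 0.32 (adjusted p = 0.000657, 0.000635, 0.0049, 3.04e-05 and 0.000208), and the sum of Tgtp1 and Tgtp2 by 2.28 (adjusted p = 0.00215). Oas1a, with 0 reads in cortex, was at least 22.96-fold higher, and its sum with Oas1g was higher by 3.67 (adjusted p = 0.000371).

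These calls at 4 weeks numbered 11 without cortex 4-week library 1 and 13 without cortex 4-week library 2. Ifit3, Rsad2, Ifitm3 and Stat2 were lost without the former (adjusted p from 0.0512 to 0.0843), Ifi27 without the latter (0.0743) and Irf7 without either (0.0756 and 0.0626). Oas1a and Irf9 were lost without any 4-week library (adjusted p from 0.0783 to 0.147), Trim25 and Ifi35 without 3 of the 4 (0.0675 to 0.141), and Gbp2 without any shPTB library (0.0545 to 0.203).

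The difference of the responses was tested directly, as midbrain against its mock minus cortex against its mock. At 2 weeks 0 members differed (0.685% of all genes did; 3 members at an unadjusted p under 0.05, 0 by DESeq2 and by limma-voom). At 4 weeks the response was higher in midbrain for 14 members (1.9% of all genes), with Zbp1 at 5.01 ± 0.68, Bst2 at 3.63 ± 0.39, Oasl2 at 3.53 ± 0.33 and Ifit1 at 2.88 ± 0.28 (adjusted p = 0.00285, 0.000694, 0.00029 and 0.000361). The change from 2 to 4 weeks was higher in midbrain for 11 members (0.363% of all genes), with Zbp1 at 4.13 ± 0.63, Oasl2 at 4.10 ± 0.31 and Ifit1 at 3.69 ± 0.26 (adjusted p = 0.0257, 0.000326 and 0.000312). The summed Tgtp genes gave 3.16 and 3.19 in these tests (adjusted p = 0.014 and 0.0219). Leaving out cortex 4-week library 1 or 2 reduced the 14 to 7 or 6, leaving out midbrain 4-week library 1 or 2 reduced them to 8 or 7, and leaving out either midbrain 2-week library reduced them to 9. Ifit1, Oasl2, Bst2, Zbp1, Tgtp2 and Lgals3bp remained called without any single library, and the largest adjusted p among the others was 0.25. The count of 11 was 3 (Ifit1, Oasl2 and Tgtp2) without any shPTB library, with adjusted p from 0.0562 to 0.329 for the other 8. Without both mock libraries numbered 1 or 2 the counts were 23 and 22 for the response at 4 weeks, and 23 and 23 for the change from 2 to 4 weeks, while the numbers of all genes called went from 372 to 1773 and 2077, and from 60 to 2079 and 2040.

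Markers of other cell types changed as well. The summed level of 18 microglia and macrophage markers was 1842 and 2756 CPM in cortex mock, 260 and 250 at 2 weeks and 103 and 109 at 4 weeks, and in midbrain 1931 and 2567 in mock, 180 and 172 at 2 weeks and 128 and 127 at 4 weeks. In each comparison with mock 17 of the 18 were lower, and 2 of the 18 had 0 reads in midbrain at 4 weeks. This list thus fell in both regions, at 2 weeks and at 4 weeks. The sum of 11 fibroblast and pericyte markers fell from 827 and 853 CPM in cortex mock to 121 and 120 at 2 weeks and 51.3 and 54.2 at 4 weeks, where 2 of them had 0 reads, and from 2106 and 2217 in midbrain mock to 329 and 345 and then 249 and 260. The sum of 8 endothelial markers was 7.03 to 9.15 CPM in cortex mock, 4.22 to 6.55 at 2 weeks and 1.35 and 1.47 at 4 weeks with 4 of the 8 at 0 reads, and in midbrain 16.8 to 24.2 in mock, 9.28 to 9.82 at 2 weeks and 7.05 and 7.23 at 4 weeks, and that of 7 ependymal markers was 164 to 217 in cortex mock, 13.5 to 15.9 in cortex shPTB and, in midbrain, 177 to 208 in mock but 47.4 to 59.9 under shPTB. At 4 weeks these 3 sums were lower in cortex than in midbrain, as those of fibroblast and endothelial markers were in mock. By the test, 6 of 11 fibroblast and pericyte, 1 of 4 tested endothelial and 3 of 7 ependymal markers were higher in midbrain at 4 weeks, and 3, 1 and 0 were in mock. The mitochondrial share at 4 weeks was 47.7 and 48.3% in cortex against 36.4 and 37.2% in midbrain. The sum of 12 oligodendrocyte-lineage markers rose in cortex only. It went there from 169 and 192 CPM (mock) to 428 and 462 at 2 weeks, with 468 and 451 at 4 weeks. Midbrain levels of this sum were 255 and 299 CPM (mock), then 239 and 234, and finally 272 and 260. By the test, 7 and 6 of its 11 tested genes rose in cortex at 2 and 4 weeks, and 2 and 3 fell. In midbrain 6 and 3 rose, and 2 and 2 fell. The sum of 12 neuronal markers was highest in mock (162 to 255) and lowest in midbrain at 4 weeks (59.9 and 60.5). The part of these cell types and of the mitochondrial share in the changes of the interferon-stimulated genes was not tested.

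**Figure D4:**
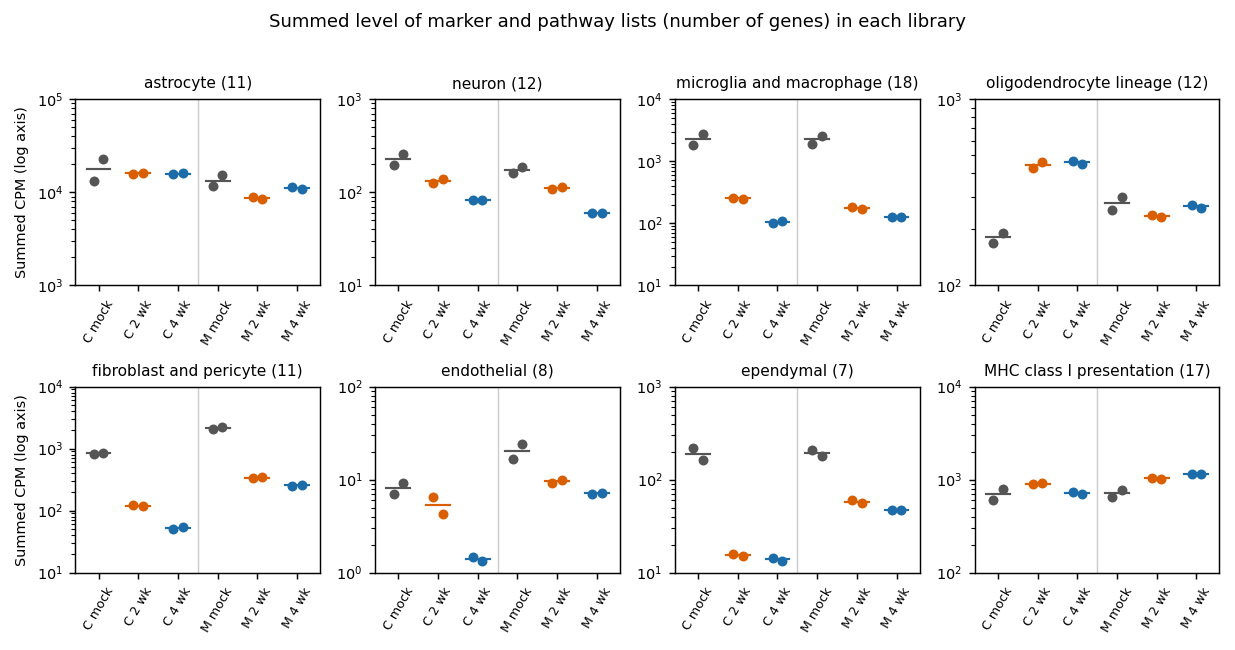
Summed CPM on a log axis of 7 lists of cell type markers and of the MHC class I genes in the 12 libraries, by group (number of genes in parentheses; C, cortex; M, midbrain). Points are libraries and short lines are means of 2. The microglia and macrophage sum drops from 1842 and 2756 CPM in cortex mock to 260 and 250 at 2 weeks and 103 and 109 at 4 weeks.

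Upstream of these genes, reads for interferons themselves were nearly absent. Of 21 interferon genes, 20 had 0 reads in all 12 libraries, which allows up to 3 reads, or 0.163 to 0.576 CPM, in each, and the other, Ifnz, had 7 reads in all, of which 6 were in mock. Of 19 genes of the receptors and their signalling, 18 were tested, and 1, 2, 3 and 2 rose while 5, 7, 5 and 6 fell in cortex at 2 and 4 weeks and midbrain at 2 and 4 weeks. Of all genes 17.5, 18.5, 15.9 and 18.7% rose and 17.6, 20.9, 14.7 and 20.4% fell in these comparisons, which are the shares to read the counts of the pathway lists against. Jak2, the kinase of the interferon gamma receptor, fell in all 4 (-1.29 to -1.90), and Irf8 and Irf5, factors of immune cells, fell in all 4 as well. Irf8 went from 4.75 to 8.63 CPM in mock to at most 0.883 in any shPTB library, and Irf5 from 0.706 to 1.92 CPM to at most 0.187. Of 18 genes of nucleic acid sensing, 16 were tested, and 1, 1, 0 and 2 rose while 4, 7, 1 and 4 fell. Tlr7, an endosomal RNA receptor, was at 6.998 to 11.04 CPM in mock and at most 0.325 in shPTB libraries, and Cgas, a DNA sensor, fell in both cortex comparisons and in midbrain at 4 weeks.

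Other targets of interferon moved in part like the 41 members. Of 50 further interferon-stimulated genes 38 were tested, and 13, 5, 11 and 9 rose while 5, 16, 3 and 4 fell in the same order, with medians of 0.39, -1.05, 0.48 and 0.39. Cxcl11, a chemokine for T cells, was at 0.0581 and 0 CPM in cortex mock, 7.11 and 6.82 at 2 weeks and 0.549 and 2.88 at 4 weeks, and Ifi27l2a fell in both cortex comparisons (-3.02 ± 0.47 and -5.07 ± 0.62) with no call in midbrain. Oas1b, an inactive relative of Oas1a in many laboratory strains, had 0 reads in cortex at 4 weeks, beside 0.930 and 0.318 CPM in mock, and rose in midbrain at 4 weeks (2.25 ± 0.66, adjusted p = 0.0228). Of 17 genes of MHC class I presentation 16 were tested, and 6, 2, 6 and 8 rose while 0, 1, 0 and 0 fell. Nlrc5, the activator of class I genes, rose by 1.95 ± 0.38 in cortex at 2 weeks and by 3.28 ± 0.42 and 3.39 ± 0.42 in midbrain, and was at 0.42 ± 0.43 in cortex at 4 weeks (adjusted p = 0.506). H2-Q4 rose in all 4, by 3.40, 1.84, 3.28 and 1.73, and the peptide editor Tapbpl did too, by 2.24 to 2.88, with no return in cortex. At 4 weeks 10 of the 38 further interferon-stimulated genes and 4 of the 16 class I genes were higher in midbrain than in cortex, as were 5.48% of all genes, and 0 and 1 were lower.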

How the data were processed

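RNA-seq of 12 libraries (6 groups of 2) was made with an anchored oligo(dT) primer and random second-strand priming, per the labels' protocols, so reads lie near the 3′ end of transcripts, and the labels mention no molecular identifiers. Per the submitters' processing notes, the tools included cutadapt 2.3, Salmon 0.14.1 and DESeq2, and the build was mm10. The deposited files give, for each of 140658 transcripts, an estimated count of reads and a TPM value, both made by the authors with Salmon. The estimated counts of the 140137 transcripts found in GENCODE M21 were summed to 54356 genes and rounded (56.3% of values over 0 were not whole). TPM served only to weight transcript lengths in 1 alternative.

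Libraries of all 6 groups were fitted together by edgeR 4.0.16 (R 4.3.3; TMM scaling, filterByExpr with a minimum count of 10 and total of 15, quasi-likelihood test), with 12 comparisons and Benjamini-Hochberg adjustment over 14607 genes in each. The fit was tested on simulated data with 200 changed genes in the cortex 2-week libraries. In these simulated data it recovered 4, 26, 72 and 78% of the changes of 1.5, 2, 4 and 8-fold. Of its calls there, 3.23% were on unchanged genes. The simulation changed 200 of 13514 genes, whereas the real comparison called 2549 genes higher and 2568 lower. It also held no deviation shared by the mock libraries. These rates therefore do not apply to the real comparisons. A gene that was not called may still have changed. The 2 libraries per group allow no exact test of single genes below 0.05, and CPM values carry counting error of each library's 6022098 to 11385761 reads. Each group's library values stand beside the folds. A fold against a group with 0 reads is given as a bound with 3 reads assumed over that group, and for a gene without reads 3 reads per library were taken as the limit. Members and lists were chosen with earlier results of these data known. Library values are given for the 4 largest called rises and 3 largest called falls against mock, for the sensors and transcription factors, for the 3 largest called changes of each other comparison, and, in each pathway list, for the 3 called genes of largest change (1 of these is not reported here), and other members were added where a result turned on them. There were 25 alternatives, among them DESeq2 1.42.0, limma 3.58.1 (voom), other scalings and filters, a replicate block and leaving out each library. The sum of Oas1a and Oas1g was added after seeing the data. Of 51 symbols of the wider target list 50 were matched. Promoter windows came from RefSeq, and members without one were not searched elsewhere. No protein sequences were used here.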

Additional observations from a re-analysis of the deposited data

Results flagged for a closer look

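The response at 4 weeks against mock differed between the regions, by a test of the difference itself (edgeR, adjusted p under 0.05), for 14 members, all higher in midbrain. On the log2 scale the difference was 5.01 for Zbp1, 3.63 for Bst2, 3.55 for Irf7, 3.53 for Oasl2, 3.25 for Usp18, 2.88 for Ifit1, 2.24 for Ifi27, 2.14 for Rsad2, 2.14 for Ifitm3, 2.11 for Rtp4, 1.93 for Lgals3bp, 1.82 for Igtp and 1.11 for Stat2. For Tgtp2 the fitted value was 10.23, which depends on the prior count because the cortex 4-week libraries had 0 reads, and the sum of Tgtp1 and Tgtp2 gave 3.16.

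The change from 2 to 4 weeks differed between the regions for 11 members, again all higher in midbrain. The difference was 4.13 for Zbp1, 4.10 for Oasl2, 3.77 for Usp18, 3.69 for Ifit1, 2.80 for Bst2, 2.41 for Rtp4, 1.90 for Igtp, 1.72 for Ifit3, 1.70 for Lgals3bp and 1.55 for Stat2. The fitted 10.26 for Tgtp2 has the same limit, and the summed copies gave 3.19.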

How the results depend on the processing

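Of 135 calls of members over the 12 comparisons, 61 held under all 25 alternatives. The counts that follow join both directions. The number of all genes called also changed under several alternatives, as given above, and it is not given beside these counts. A count that moved is therefore not by itself a result about the members. Leaving out 1 library at a time gave 15 to 22 members in cortex at 2 weeks against mock, 6 to 18 in cortex at 4 weeks, 12 to 20 and 16 to 24 in midbrain at 2 and 4 weeks, 5 to 18 for cortex 4 against 2 weeks and 0 to 3 for midbrain. It gave 0 to 0, 0 to 2 and 11 to 22 between the regions in mock, at 2 and at 4 weeks, and 0 to 0, 6 to 16 and 3 to 15 for the differences of the 2-week response, the 4-week response and the change from 2 to 4 weeks. In fits that leave 1 library in a group, its spread is taken from the other groups.

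Without both mock libraries numbered 1, the counts were 21 in cortex at 4 weeks, 25 and 12 for 4 against 2 weeks in cortex and midbrain, 1 and 10 between the regions in mock and at 2 weeks, and 2, 23 and 23 for the differences of the 2-week response, the 4-week response and the change. Without both numbered 2 they were 20, 25, 12, 3, 10, 2, 22 and 23 in the same order. With only the groups compared, the counts were 8 in cortex at 4 weeks, 25 and 12 for 4 against 2 weeks, 10 between the regions at 2 weeks, and 8 and 23 for the differences of the 4-week response and the change.

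With limma-voom and library weights, 24 and 15 members were called for 4 against 2 weeks in cortex and midbrain, 7 between the regions at 2 weeks and 22 for the difference of the change. Without a count filter these were 21, 5, 2 and 17. Between the regions at 2 weeks DESeq2 and the strict filter (5 CPM in 2 libraries) each called 2, and total reads scaling and the transcript length offset each called 0. Total reads scaling called 27 in cortex at 4 weeks. Summing Oas1a with Oas1g left 1 call for midbrain 4 against 2 weeks.

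Direction reversed for Ifitm3 in midbrain at 2 weeks and Stat2 in cortex at 4 weeks with the length offset (-0.41 and 0.0861), and for Rtp4 and Lgals3bp in cortex at 4 weeks with total reads scaling (-0.14 and -0.54). The cause was not tested. With the replicate number as a block, the counts of the 12 comparisons were 21, 13, 20, 23, 14, 3, 0, 1, 20, 0, 14 and 12. Deviations by replicate number correlated at 0.716 between the mock groups and at -0.0274 to 0.0306 between all other pairs of groups. The number thus marked a shared deviation in mock only, which the main fit does not model. The block gives the number the same effect in all 6 groups, so it does not match that pattern.

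At 6022098 to 11385761 reads, Isg15, Mx1, Oas2, Ifi44 and Gbp3, with 7 to 27 reads in all, were below what could be tested, and interferon transcripts below 3 reads per library could not be seen.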
